A study of Mus musculus with 8 samples.

Results

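Small B islands are short stretches of inactive-type chromatin that lie inside active-type chromatin. Chromosomes fold so that active and inactive regions each contact their own kind, and these are called the A and B compartments. A chromatin is gene-rich and B chromatin is gene-poor, lies mostly at the nuclear lamina and carries histone H3 methylated at lysine 9 (H3K9), the mark that the methyltransferases SETDB1, SUV39H1/2 and G9a/GLP deposit. Compartments were read here from Hi-C, an assay that counts how often pairs of loci touch in fixed nuclei, as a compartment score per 100-kb bin. A positive score marks A, a negative score marks B, and the score has no unit.

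The islands were chosen by their scores in 1 library, Setdb1 WT. A run of 1 to 3 adjoining autosomal bins below 0 was taken where at least 3 adjoining bins on each side were above 0. This gave 114 islands holding 178 bins, of 23992 bins scored in that library and 23972 scored in all 8 libraries. 71 islands had 1 bin, 22 had 2 and 21 had 3. They lay on all 19 autosomes, from 12 on chromosome 1 to 1 on chromosome 19. Because Setdb1 WT chose them, its own values describe the islands and test nothing.

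The libraries came from mouse embryonic stem cells (mESCs), 1 library for each of 8 groups. 4 groups came from #33-6, a Setdb1 conditional knockout line in which 4-hydroxytamoxifen (4-OHT) removes SETDB1. They were Setdb1 WT (no treatment), Setdb1 WT + UNC (2 µM UNC0642 for 3 days), Setdb1 KO (800 nM 4-OHT for 5 days) and Setdb1 KO + UNC (800 nM 4-OHT for 2 days, then 2 µM UNC0642 for 3 days). UNC0642 blocks the catalytic activity of G9a and GLP. Only the Setdb1 KO libraries were given 4-OHT, so an effect of 4-OHT cannot be told apart from one of SETDB1 loss. Those 2 libraries also differ in days of 4-OHT, 5 against 2, so within that pair this cannot be told apart from UNC0642. The second background held Suv39h WT (ADF1-26) and Suv39h DKO (ADF157), each with and without UNC0642 at that dose and time. Suv39h DKO lacks SUV39H1 and SUV39H2 and is a separate clone from Suv39h WT, so an effect of the clone cannot be told apart from one of the genotype. The files do not say which repeat of the experiment, or which pool, each holds.

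The deposited scores come without read counts. The paper lists read numbers for each repeat of these groups, but it is not stated which repeat a score comes from. No counting error per bin can therefore be given. The bins that hold the starts of 10 pluripotency genes (Pou5f1, Nanog and others) were above 0 in all 8 libraries. So were 13 of 14 genes of the H3K9 methylation machinery, and none of the 24 started in an island. The deposited scores average 0 on each chromosome of each library, so a general rise or fall cannot be seen.

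Several islands hold sequences that occur in near-identical copies, and a few are shown first because such copies come up again in the results that follow. The sequences come from GRCm38, which shares coordinates with mm10, the build of the files, and the promoters from RefSeq (GRCm38.p6). The island at chr6:114500001-114600000 overlaps no protein-coding gene. It was the most GC-rich island, at 57.6% GC against a median of 42.4% over island bins. A 24-base word occurred 42 times in it, at spacings of 2335 to 2507 bases (median 2434), which makes it a tandem array. Over the 150 bases that begin with this word, 40 of its copies lay within 15 differences of the first, with a median of 3. The first 4 copies follow, on the plus strand, with bases that differ from the first copy in capitals. They lie at chr6:114500112-114500261, chr6:114502518-114502667, chr6:114504853-114505002 and chr6:114507215-114507364.
copy1: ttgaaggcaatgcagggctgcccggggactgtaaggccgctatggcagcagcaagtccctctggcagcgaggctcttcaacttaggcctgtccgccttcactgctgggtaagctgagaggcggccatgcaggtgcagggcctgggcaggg
copy2: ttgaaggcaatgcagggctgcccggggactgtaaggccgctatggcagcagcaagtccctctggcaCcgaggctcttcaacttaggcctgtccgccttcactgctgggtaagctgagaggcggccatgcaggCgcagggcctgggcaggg
copy3: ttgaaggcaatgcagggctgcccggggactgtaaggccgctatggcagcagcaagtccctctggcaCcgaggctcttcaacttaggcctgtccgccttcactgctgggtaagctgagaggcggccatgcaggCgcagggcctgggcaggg
copy4: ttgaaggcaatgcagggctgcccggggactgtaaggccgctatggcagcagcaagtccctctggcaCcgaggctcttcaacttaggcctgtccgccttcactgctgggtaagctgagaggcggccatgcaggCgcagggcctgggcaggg

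The island at chr10:81700001-82000000 holds a cluster of zinc-finger genes, which encode DNA-binding proteins. Among them, Zfp781 (chr10:81930463-81930762, minus strand) and Gm3055 (chr10:81771125-81771424, minus strand) have the same 300 bases from 250 before to 50 after the start, printed once with CG pairs in capitals.
Zfp781: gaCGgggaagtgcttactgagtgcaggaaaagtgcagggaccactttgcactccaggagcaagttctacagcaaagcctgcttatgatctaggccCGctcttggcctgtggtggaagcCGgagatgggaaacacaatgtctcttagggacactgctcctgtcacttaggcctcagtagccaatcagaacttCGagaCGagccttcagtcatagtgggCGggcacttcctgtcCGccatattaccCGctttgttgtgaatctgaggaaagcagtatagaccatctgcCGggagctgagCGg
In the island at chr17:33200001-33300000 the promoters of Zfp955a (chr17:33255096-33255395, minus strand) and Zfp955b (chr17:33289294-33289593, plus strand) were likewise identical and lie on opposite strands.
Zfp955a: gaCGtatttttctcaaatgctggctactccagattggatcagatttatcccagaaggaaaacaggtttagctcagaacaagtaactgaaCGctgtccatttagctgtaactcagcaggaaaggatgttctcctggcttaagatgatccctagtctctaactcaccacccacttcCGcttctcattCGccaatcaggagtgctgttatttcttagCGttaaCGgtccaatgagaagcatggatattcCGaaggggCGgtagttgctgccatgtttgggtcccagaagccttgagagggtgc
In the island at chr7:26000001-26300000, Cyp2b13 (chr7:26061245-26061544) and Cyp2b9 (chr7:26173159-26173458), cytochrome P450 genes on the plus strand, differ at 2 of 300 promoter bases, given in capitals in the second.
Cyp2b13: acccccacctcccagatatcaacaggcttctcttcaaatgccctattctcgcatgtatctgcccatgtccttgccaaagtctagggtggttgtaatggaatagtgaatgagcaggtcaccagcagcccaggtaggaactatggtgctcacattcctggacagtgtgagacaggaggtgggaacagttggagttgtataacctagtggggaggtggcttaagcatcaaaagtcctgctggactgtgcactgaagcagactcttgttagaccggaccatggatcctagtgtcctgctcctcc
Cyp2b9: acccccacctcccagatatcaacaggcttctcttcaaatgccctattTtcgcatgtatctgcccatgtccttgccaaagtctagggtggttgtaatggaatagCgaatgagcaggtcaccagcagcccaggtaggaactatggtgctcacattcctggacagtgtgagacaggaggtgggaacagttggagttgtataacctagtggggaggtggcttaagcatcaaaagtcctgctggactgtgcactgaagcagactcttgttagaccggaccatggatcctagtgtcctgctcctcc

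Most members sat just below 0 in the library that chose them. Their Setdb1 WT scores ran from -0.0745 to -0.000108 with a median of -0.00357. 113 of the 178 (63.5%) lay between -0.005 and 0. Just outside the threshold, 17 of the 228 bins that adjoin an island scored below 0.001, the lowest 4.13e-05, and their median was 0.00684. If the scores of a chromosome are an eigenvector that had unit length before it was centred, a mean of 0.00165 to 0.0112 was taken off each chromosome, and 119 members (66.9%) lay closer to 0 than that of their own chromosome.

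Outside the library that chose them, the island bins were on both sides of 0. In Setdb1 WT + UNC, 104 of 178 island bins (58.4%) were below 0, beside 55.3% of all bins. Setdb1 KO had 118 (66.3%, all bins 55.3%) and Setdb1 KO + UNC had 127 (71.3%, all bins 55.4%). Suv39h WT had 104 of 177 scored (58.8%, all bins 55.2%) and Suv39h WT + UNC had 87 of 178 (48.9%, all bins 54.8%). Suv39h DKO had 93 of 177 (52.5%, all bins 54%) and Suv39h DKO + UNC had 101 of 178 (56.7%, all bins 53.7%). Of all the bins that were B in Setdb1 WT, 92.7% to 96.9% stayed below 0 in the same libraries. The island bins thus sat near the share of all bins in most libraries, and highest in the 2 libraries of cells given 4-OHT. The plot of shares by library sets these values side by side.

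**Figure D1:**
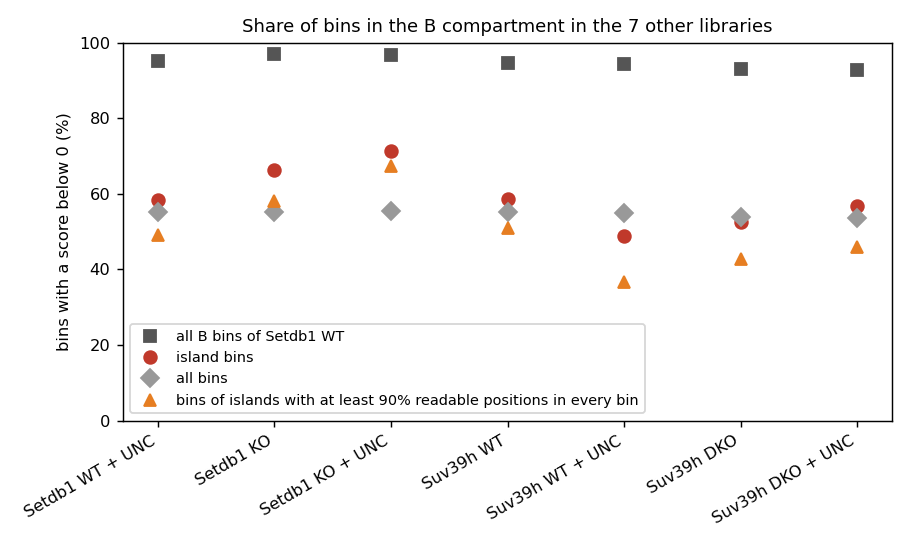
Share of bins with a score below 0 (y axis, %) in each of the 7 libraries that did not choose the islands (x axis). Red circles are the island bins (48.9% to 71.3%), grey diamonds all bins, dark squares all bins that were B in Setdb1 WT, and orange triangles the 98 bins of islands in which every bin had at least 90% of its sampled positions readable (36.7% to 67.3%).

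45 of the 177 island bins scored everywhere (25.4%) were below 0 in all 7 other libraries, and 8 (4.52%) were above 0 in all 7. Of all bins, 48.2% were below 0 and 39.1% above 0 in all 7, and of all Setdb1 WT B bins 86.5% were below 0 in all 7. Closeness to 0 went with this. Of the 30 island bins below -0.01 in Setdb1 WT, 96.7% to 100% were below 0 in each other library, and other B bins of that band gave 98.7% to 99.9%. Between -0.005 and 0, the 113 island bins gave 34.5% to 60.2% and the 1146 other B bins 58.2% to 76.9%. These bands are cut on the scores that chose the islands, and the rule also required A bins beside them in that library, so nothing is read from the gap. The rule turned round, small A islands inside B chromatin, gave 236 runs and 396 bins, of which 49.2% were above 0 in all 7 other libraries.

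The same rule read in each other library gave 115 to 145 islands, whose 176 to 216 bins were 0.733% to 0.9% of all bins scored there, and overlapped these bins in part. The shared bins were 99 with Setdb1 KO + UNC (55.6% of the islands, 45.8% of that library's) and 96 with Setdb1 KO (53.9% and 47.5%). With Setdb1 WT + UNC they were 60 (33.7% and 34.1%) and with the 4 Suv39h libraries 52 to 60 (29.2% to 33.7% of the islands). Of all bins, 19 met the rule in all 8 libraries, while 733 met it in at least 1, and 36 of the 178 met it in Setdb1 WT alone.

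**Figure D2:**
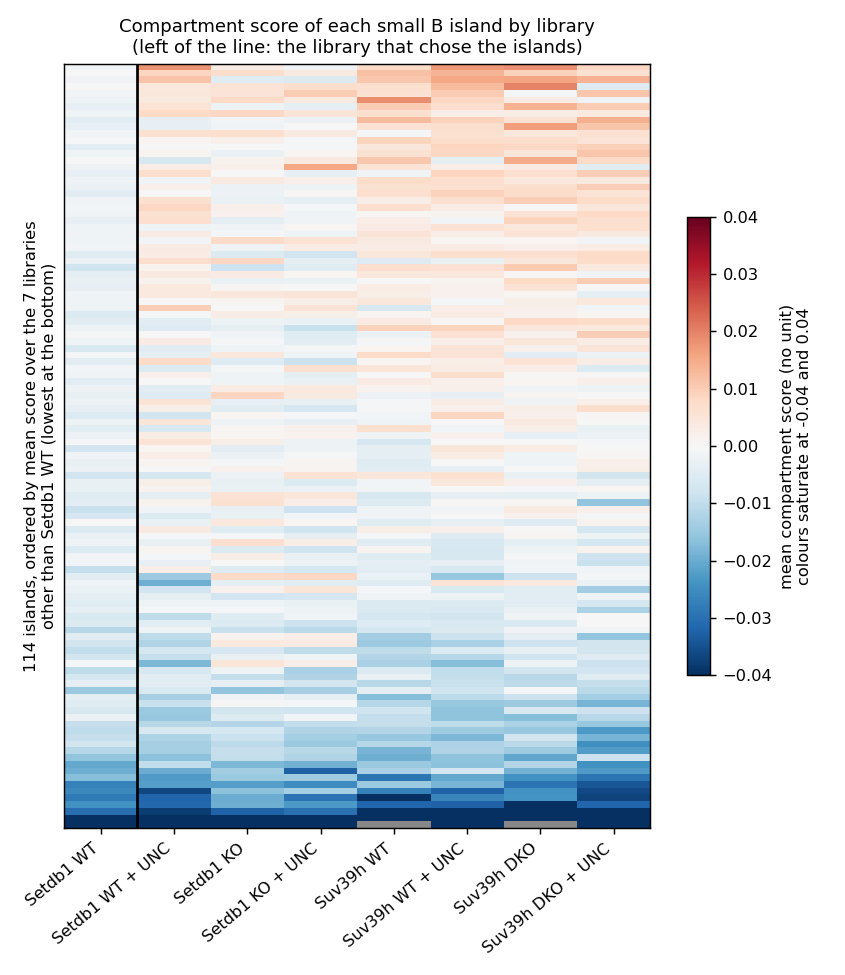
Mean compartment score (colour, no unit, saturating at both ends of the scale) of each of the 114 islands (rows) in the 8 libraries (columns), ordered by the mean over the 7 libraries right of the line. Grey marks the island unscored in 2 libraries; the lowest rows are blue in every library and upper rows turn red in some.

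Most islands were local lows in every library, whichever side of 0 they lay on. The island mean minus the mean of the 6 bins that flank it had a median of -0.0173 in Setdb1 WT, where the rule forced it below 0. In Setdb1 WT + UNC the median was -0.0136 and 110 of 114 islands (96.5%) were below their flanks, beside 53.7% of all bins. Setdb1 KO gave -0.0156 with 110 islands (all bins 53.9%) and Setdb1 KO + UNC gave -0.0159 with 112 (all bins 54.2%). All 3 medians were nearer to 0 than that of the library that chose the islands. Suv39h WT gave -0.0137 with 109 of 113 islands (all bins 52.6%), and its UNC0642 partner -0.0126 with 107 of 114 (all bins 52.6%). Suv39h DKO gave -0.0121 with 110 of 113 (all bins 52.8%), and its UNC0642 partner -0.0120 with 108 of 114 (all bins 52.5%). 97 of the 113 islands scored in every library were below their flanks in all 7, beside 22.9% of all bins.

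**Figure D3:**
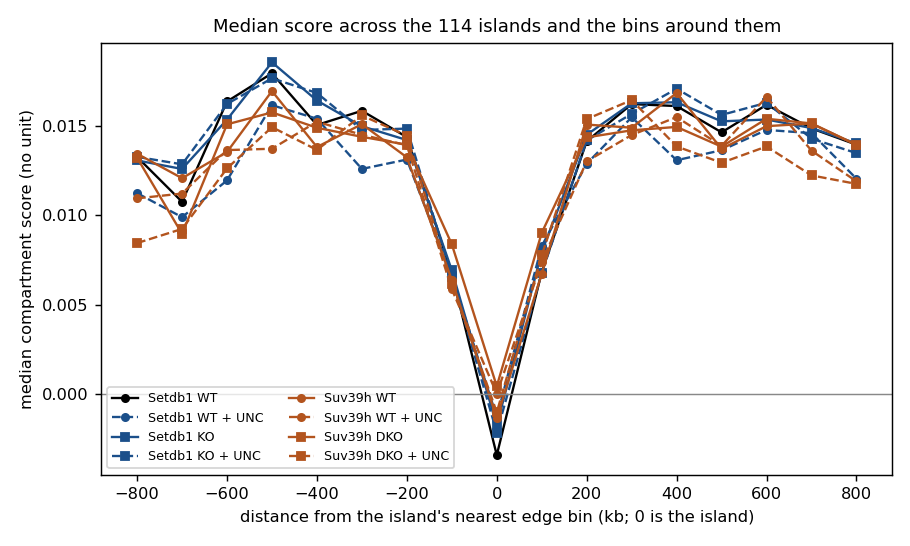
Median compartment score (y axis, no unit) over the islands at 0 and at each distance from their edges (x axis, kb), 1 line per library. The lines fall together from between 0.0129 and 0.0154 at 200 kb to between -0.00339 (Setdb1 WT) and 0.000460 (Suv39h DKO) in the island.

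Islands that stayed below 0 held less sequence that short reads can place. To measure this, 150-base pieces taken every 2000 bases of each bin were mapped back to the genome, and a position was called readable where its piece mapped with a quality above 10. The median bin of the genome had 98% of its positions readable. Island bins had 92%, their flanking bins 98%, and all A and all B bins 98% and 94%. Among the island bins below 0 in all 7 other libraries the median was 58%, against 94% for those below 0 in 3 to 6 and 96% for those below 0 in 0 to 2. Of the 24 island bins with under 60% readable, 23 were below 0 in all 7, of the 41 with 60% to 90%, 11 were, and of the 112 with 90% or more, 11 were. B bins of Setdb1 WT outside the islands were below 0 in all 7 in 95.9%, 92.2% and 85.8% in the same classes. The islands were thus beside the other B bins in the least readable class, at 95.8%, and under them in the others, at 26.8% and 9.82%. The mean score over the 7 libraries had medians of -0.0239, -0.00162 and 0.000525 in these classes, which were cut after the values were seen. Over 177 bins the readable share and this mean score had a Pearson r of 0.797 and a Spearman rho of 0.532, and over the 153 bins with at least 60% readable 0.405 and 0.295. These points share libraries and neighbouring sequence and carry no test. In all B bins of Setdb1 WT the same Pearson r was 0.325. The authors likewise kept reads with a mapping quality above 10. What part this has in the scores was not tested.

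**Figure D4:**
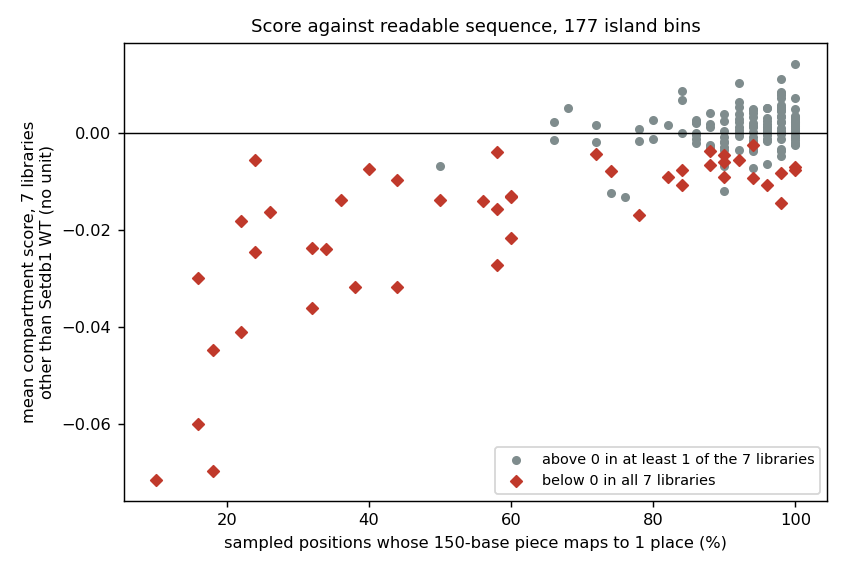
Mean compartment score over the 7 libraries other than Setdb1 WT (y axis, no unit) against the share of sampled positions that are readable (x axis, %), 1 point per island bin scored in all 8 libraries. Red diamonds are the 45 bins below 0 in all 7; the 24 bins with under 60% readable have a median of -0.0239.

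Among island bins, repeats within a bin were also more frequent in those below 0 in all 7 other libraries. The measure was the share of 24-base words that occur more than once in their own bin. It reached 10% in 16 of the 45 bins below 0 in all 7 and in 1 of the 51 below 0 in 0 to 2. It did so in 26 of all 178 island bins and in 17 of 664 flanking bins. It was 94.8% in the chr6 array. No value was computed for other B bins or for all bins, so whether this is particular to islands was not tested. RefSeq promoters of 76 of the 107 protein-coding genes that start in islands were found. A promoter was called near-identical to another gene's where they shared at least 100 of their 270 31-base words. That was so for 16 of the 36 promoters (44.4%) in bins below 0 in all 7 and for 2 of the 40 (5%) in other island bins. It was so for 2.41% of promoters in flanking bins, 1.32% in all A bins and 11.5% in all B bins. Of the promoters printed above, those of Zfp781 and Zfp955a come from islands below 0 in all 8 libraries and that of Cyp2b9 from one that was not. Island promoters also held few CG pairs, the sites of DNA methylation. Their median was 3.5 in 300 bases, near the 3 of all B bins and far under the 15 in flanking bins and the 18 in A bins.

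In base composition and genes the islands lay between A and B. Their median GC content was 42.4%, against 43.3% in the flanking bins, 44.7% in all A bins and 39.2% in all B bins. CpG came to 8.04 per kb (flanks 9.35, A 11.0, B 5.96), and soft-masked repeats covered 33.0% (flanks 28.7%, A 27.8%, B 36.4%). No protein-coding gene started in 113 of the 178 bins (63.5%), against 40.1% of flanking bins, 33.5% of A bins and 77.8% of B bins. Of all scored protein-coding genes, 107 of 20773 started in an island. Of the 32 gene families looked up by symbol, 5 had any such start. They were olfactory receptors (11 of 1128), Ces carboxylesterases (6 of 19, all of them Ces2 genes of 1 island), zinc-finger genes (5 of 383), Cyp genes (3 of 102) and Vmn1r pheromone receptors (1 of 205). The other 27 families had none, whether they lie mostly in A, as Hox (39 genes) and Slc (372) do, or mostly in B, as Vmn2r (118) and Krtap (57) do. With so few starts over all genes, a count of 0 sets no family apart.

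The 24 islands that were below 0 at every bin in all 8 libraries began with the zinc-finger cluster at chr10:81700001-82000000. Among its genes are Zfp781, Gm3055 and Zfp433, and 14.7% of its positions were readable. Without UNC0642 its mean score was -0.0616 in Setdb1 WT, -0.0589 in Setdb1 KO, -0.0709 in Suv39h WT and -0.0764 in Suv39h DKO. With UNC0642 these 4 became -0.0640, -0.0623, -0.0675 and -0.0693. All 4 Suv39h values lay below all 4 Setdb1 values. The chr6 array came next, with 18% readable. Without UNC0642 it scored -0.0306 in Setdb1 WT, -0.0324 in Setdb1 KO, -0.0675 in Suv39h WT and -0.0416 in Suv39h DKO. With UNC0642 these 4 were -0.0380, -0.0300, -0.0475 and -0.0567. It too was lower in every Suv39h library than in every Setdb1 library.

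The island at chr12:19300001-19600000 overlaps no protein-coding gene and had 31.3% readable, with means from -0.0469 in Suv39h DKO to -0.0195 in Setdb1 KO. The bin at chr15:38800001-38900000 is largely an assembly gap and had 16% readable, with scores from -0.0409 in Suv39h WT to -0.0198 in Setdb1 KO. Fbxw28, an F-box gene, starts at chr9:109300001-109400000 (32% readable, -0.0341 to -0.0149). Gm7697 and Gm9495 start at chr8:69400001-69600000 (68% readable, -0.0293 to -0.0143). Dynlt1a, a dynein light chain gene, starts at chr17:6300001-6400000 (22% readable, -0.0327 to -0.00659). Llgl1, a cell polarity gene, starts at chr11:60600001-60700000 (26% readable, -0.0243 to -0.00997). None of these 8 islands had more than 68% of positions readable. The single island lower than all of them, at chr12:55100001-55200000 with the signal recognition particle gene Srp54b, had 0% readable and was not scored in Suv39h WT and Suv39h DKO; it scored -0.0776 to -0.0686 in the other 6 and is named after its values were seen.

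Sorting the islands by the genes they overlap was chosen after values were seen and carries no test. 13 islands overlapped at least 2 protein-coding genes whose symbols have all letters before their first digit in common, at least 3 of them (Gm and Rik names, and symbols with no digit such as Pirb, left out). They include the Slfn genes (Schlafen proteins), Nat8f genes (acetyltransferases), Ces2 genes, Ccl3 and Ccl4 (chemokines) and Mmp10, Mmp8 and Mmp27 (matrix metalloproteinases). Their mean score was below 0 in 10 to 12 of the 13 in each other library (of the 12 scored in Suv39h WT and Suv39h DKO), beside 48.7% to 67.5% of all islands, and the median over the 7 libraries was -0.00978, with 79.3% of positions readable. 20 islands lay wholly inside 1 protein-coding gene that starts elsewhere. They include Grin2b (an NMDA receptor subunit), Dscam (a neuronal adhesion protein), Dlgap2 (a synaptic scaffold) and Atp8a2 (a lipid flippase). Their median was 0.00221 with 96% readable, and none was below 0 throughout. Their mean was below 0 in 8 of the 20 in Setdb1 WT + UNC (all islands 59.6%) and in 13 in each Setdb1 KO library (all islands 64.9% and, with UNC0642, 67.5%). The Setdb1 KO counts were near those of all islands. Suv39h WT had 6 such islands (all islands 60.2%) and its UNC0642 partner 4 (49.1%). Suv39h DKO had 2 (48.7%) and its UNC0642 partner 6 (55.3%). An example is the island inside Dlgap2 at chr8:14400001-14700000 (100% readable). It scored -0.00485 in Setdb1 WT, -0.00552 in Setdb1 KO and -0.00753 in its UNC0642 partner, but 0.00311 in Setdb1 WT + UNC and 0.00463 to 0.00776 in the 4 Suv39h libraries. Of the 177 island bins, 21 were below 0 in both libraries given 4-OHT and above 0 in all 4 Suv39h libraries (all bins 1.08%), and 10 had the reverse pattern (all bins 1.03%). The first pattern shares its cell line and sign with the library that chose the bins, and 10567 B bins of that library outside the islands lay below -0.01.

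Of the 6 islands with the highest mean over the 7 libraries, 5 touch a single gene. Atp8a2 (chr14:59900001-60000000) scored -0.000938 in Setdb1 WT, 0.00309 in Setdb1 KO, 0.00761 in Suv39h WT and 0.0183 in Suv39h DKO. With UNC0642 these 4 were 0.0181, -0.00100, 0.0173 and 0.00820. Exoc6b, an exocyst gene (chr6:84700001-84800000), was above 0 in all 7, from 0.00352 to 0.0136. A bin with no protein-coding gene at chr14:61900001-62000000 was above 0 in Setdb1 WT + UNC (0.0115) and in the 4 Suv39h libraries (0.0107 to 0.0157) and below 0 in Setdb1 KO (-0.00473) and Setdb1 KO + UNC (-0.00592). The remaining 3 lie at Cpa6 (a carboxypeptidase), Xkr9 and Eya1 (a developmental phosphatase) on chromosome 1, with values of -0.00517 to 0.0197.

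Changes between libraries were counted at 0.01 or more, in the 6 comparisons of 1 library with 1 that leave out Setdb1 WT. Some of them share libraries. With UNC0642 in Setdb1 KO, 1 island bin of 178 was higher (0.755% of all bins) and 4 were lower (0.934% of all bins), with a median change of -0.00140. That pair also differs in days of 4-OHT. With UNC0642 in Suv39h WT, 7 of 177 were higher (all bins 2.26%) and 7 lower (all bins 2.53%). With UNC0642 in Suv39h DKO, 6 were higher (all bins 3.04%) and 16, or 9.04%, lower (all bins 3.69%). Suv39h DKO against Suv39h WT had 13 higher, or 7.34% (all bins 3.64%), and 6 lower (all bins 3.73%). The same pair with UNC0642 had 7 higher (all bins 2.98%) and 19 lower, or 10.7% (all bins 3.86%). Setdb1 KO + UNC against Setdb1 WT + UNC had 23 higher, or 12.9% (all bins 7.16%), and 19 lower, or 10.7% (all bins 5.79%). Of this pair, only Setdb1 KO + UNC was given 4-OHT. Both directions occurred in each comparison, and there is no replicate error to set them against. Relative to the 6 flanking bins the last comparison had 20 island bins past 0.01 in place of 42 (all bins 5.26%). In the 98 bins of the more readable islands the counts of either sign in the 6 comparisons, in this order, were 3, 4, 7, 11, 10 and 27. Among all bins with at least 90% readable the shares were 1.62%, 4.47%, 6.04%, 6.99%, 6.48% and 12.3%.

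**Figure D5:**
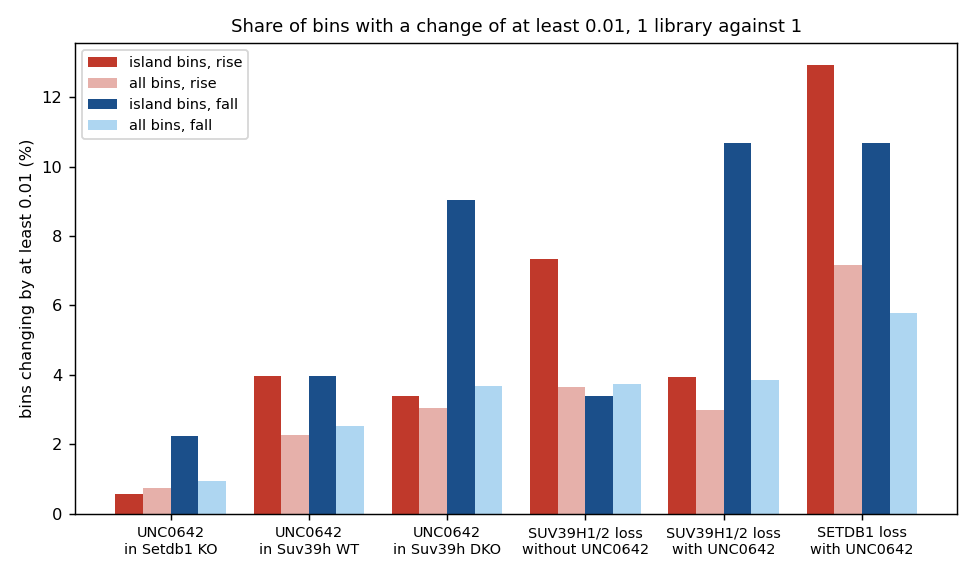
Share of bins higher or lower by at least 0.01 (y axis, %) in the 6 comparisons of 1 library with 1 that do not use Setdb1 WT (x axis). Dark bars are the island bins and pale bars all 23972 bins; the highest bar is the 12.9% of island bins that were higher in Setdb1 KO + UNC than in Setdb1 WT + UNC.

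The largest differences of whole islands lay partly on the least readable ones. The chr6 array was higher by 0.0199 with UNC0642 in Suv39h WT and by 0.0259 in Suv39h DKO than in Suv39h WT. The island at chr12:19300001-19600000 differed by 0.0153 with UNC0642 in Suv39h DKO and by -0.0153 between Suv39h DKO and Suv39h WT. The Dynlt1a bin differed by -0.0188 with UNC0642 in Setdb1 KO. Other islands with the largest differences had more readable positions. Dip2c (chr13:9400001-9500000, 90% readable) differed by 0.0135 with UNC0642 in Setdb1 KO, and Nubpl, a complex I assembly gene (chr12:52200001-52300000, 88% readable), by -0.0149 with UNC0642 in Suv39h WT. Cpa6 (98% readable) differed by -0.0249 with UNC0642 in Suv39h DKO, and by -0.0179 between the Suv39h genotypes under UNC0642. The Mmp10, Mmp8 and Mmp27 island (chr9:7500001-7600000, 92% readable) differed by 0.0144 in the latter comparison. Between Setdb1 KO + UNC and Setdb1 WT + UNC, Atp8a2 had the lowest difference, -0.0191. The highest, 0.0234, was again in a poorly readable island, that of Gm9117, Gm9125 and Gm10696 at chr3:93900001-94200000 (38.7% readable).

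limma was fitted to the 7 other libraries with a level for each of the 4 genotypes and a term for UNC0642, so UNC0642 was tested within genotypes and SETDB1 or SUV39H1/2 loss between them. With Benjamini-Hochberg adjustment over all 23972 bins, UNC0642 gave no call among the 177 island bins (0% of all bins called). At an unadjusted p under 0.05 it gave 11 (all bins 5.57%). SUV39H1/2 loss gave no call either (0% of all bins), and 29 island bins, or 16.4%, at an unadjusted p under 0.05 (all bins 11.2%). The lowest adjusted p of an island bin in limma was 0.879 for UNC0642 and 0.285 for SUV39H1/2 loss. SETDB1 loss gave 5 calls in island bins (2.82%, all bins 1.87%) and 43 at an unadjusted p under 0.05 (24.3%, all bins 15.5%). Its control was Setdb1 WT + UNC alone, which was not given 4-OHT. With Setdb1 WT added, limma called 0 bins anywhere, with 30 island bins at an unadjusted p under 0.05.

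The SETDB1 calls thus rest on a control of 1 library, whose spread is taken from the other groups, and they do not hold with the second control library. The 5 bins are given as values. In 3 of them both Setdb1 KO libraries lay above Setdb1 WT + UNC. The bin chr3:94100001-94200000, in an island with Tdpoz5, was at -0.0212 in Setdb1 WT + UNC, against 0.0104 in Setdb1 KO without and 0.0126 with UNC0642, a fitted difference of 0.0331 ± 0.00375 (SE, limma adjusted p = 0.00827), with 50% readable. It was at -0.0156 to -0.00961 in the 4 Suv39h libraries. Its Setdb1 WT value was -0.00114. The bin chr8:77800001-77900000 next to the start of Ednra, the endothelin receptor A gene, had a fitted difference of 0.0177 ± 0.00333 (SE, limma adjusted p = 0.0342), from -0.0173 in the control to -0.00417 in Setdb1 KO without and 0.000670 with UNC0642. The bin chr16:57000001-57100000 with Tmem45a2 had a fitted difference of 0.0194 ± 0.00342 (SE, limma adjusted p = 0.0273), from -0.0179 to 0.00486 and 0.00264. In the other 2, both Setdb1 KO libraries lay below it. The bin chr12:82900001-83000000 inside Rgs6, a regulator of G-protein signalling, had a fitted difference of -0.0180 ± 0.00330 (SE, limma adjusted p = 0.0311), from 0.00807 to -0.00549 and -0.00979. The bin chr18:11200001-11300000, in an island with no protein-coding gene, had a fitted difference of -0.0177 ± 0.00344 (SE, limma adjusted p = 0.0397), from 0.0118 to -0.00522 and -0.00456. In all 5, Setdb1 WT, which chose them and stayed out of the fit, lay between Setdb1 WT + UNC and both Setdb1 KO libraries.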

How the data were processed

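Compartment scores came from 8 Hi-C libraries of mESCs, 1 per group. Per the study's methods, the authors cut with DpnII, aligned to mm10 with the 4D Nucleome pipeline, kept mapping qualities above 10, built matrices with Juicer Tools and deposited a compartment score from KR-normalised maps per 100-kb bin. That the score is an eigenvector is read from the names of the deposited files. Labels also name Juicer. The paper lists a read number for each repeat of each group. Which of these depths belongs to a score is unknown, because its repeat or pool is not stated.

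Members and lists were chosen with earlier results of these data known. The islands, shares, local lows and changes were computed in Python 3.11.15 (pandas 2.3.3). limma 3.58.1 in R 4.3.3 fitted a level per genotype and a term for UNC0642 to the 7 libraries other than Setdb1 WT, leaving 2 residual degrees of freedom. A run on simulated scores had equal noise in all bins and shifts in the UNC0642 term alone, so it did not cover the SETDB1 comparison. p-values measure only the spread between these libraries. Genes are GENCODE vM21, of which 20807 are protein-coding on autosomes. Readable positions (minimap2 2.31-r1302, not the authors' aligner), repeated words, promoter copies and gene classes were added after seeing the data. Named islands were the 8 lowest of those below 0 everywhere, the 6 highest, the largest rise and fall per comparison, and those with a limma call, with up to 3 genes each. Alternatives are given in the closing section.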

Additional observations from a re-analysis of the deposited data

Results flagged for a closer look

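The median change of the island bins had opposite signs under the same contrast in 3 cases, and none of the differences was tested, since each contrast rests on 1 library against 1. The median change of island bins with UNC0642 was -0.00140 in Setdb1 KO and 0.000470 in Suv39h WT, a difference of -0.00187. It was 0.000470 in Suv39h WT and -0.000744 in Suv39h DKO, a difference of 0.00121. With SUV39H1/2 loss it was 0.00157 without UNC0642 and -0.000349 with UNC0642, a difference of 0.00192. The last 2 are built from the same 4 libraries. The Setdb1 KO pair of the first also differs in days of 4-OHT. The median change was also taken relative to the 3 bins on each side of every single bin. In islands of 2 or 3 bins these neighbours include bins of the same island. UNC0642 then gave -0.000822 in Setdb1 KO, 0.000551 in Suv39h WT and -0.000162 in Suv39h DKO. SUV39H1/2 loss gave 0.000570 without and -0.000929 with UNC0642.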

How the results depend on the processing

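The number of islands (114) and of their bins (178) followed the rule. They were 30 and 43 with run bins at or below -0.005, 193 and 310 with flanks of 2 bins, 64 and 103 with flanks of 5 bins, and 64 and 98 in islands with at least 90% readable positions in every bin, a setting chosen after seeing the data. Runs of 1 to 2 bins gave 115 bins and runs of 1 to 5 gave 318. The bins below 0 in all 7 other libraries (45) were 26, 81, 25 and 10 under the first 4 of these settings, and 27 and 88 with runs of 1 to 2 and 1 to 5. The share below 0 (48.9% to 71.3%) was 71.4% to 97.7% with run bins at or below -0.005 and 36.7% to 67.3% in the readable islands, and reached 80.5% with runs of 1 to 5. The shares of islands below their flanks ran from 93.9% to 98.2%, and the settings run moved them to no less than 90.6% and no more than 99.1%. Island bins changing by at least 0.02, in the order of the report, were 0, 0, 2, 2, 0 and 4, in place of 5, 14, 22, 19, 26 and 42 at 0.01. At 0.01 in the readable islands they were 3, 4, 7, 11, 10 and 27. Relative to the flanks at 0.01, UNC0642 in Setdb1 KO gave 8 and SETDB1 loss 20. limma's calls for SETDB1 loss (448, 5 of them in islands) were 0 and 0 with all 8 libraries, 611 and 9 without the Suv39h WT pair, and 648 and 7 without the Suv39h DKO pair. UNC0642 and SUV39H1/2 loss gave 0 calls in every fit run. With all annotated genes, 44 island bins had no gene start in place of 113. The GC difference from A bins, -2.28 percentage points, was -0.873 from the flanking bins. The causes were not tested. In all, 117 alternative values equalled or stayed near the reported value, 34 moved and 5 fell to 0. The 117 include limma counts of 0 under both settings, which had no call to keep. Those that fell to 0 include counts at the stricter change of 0.02. Adding or subtracting the implied chromosome mean left island counts within 1.5 times.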

Other observations

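The islands described here were picked after their values were seen and stand for no group. The island at chr11:54200001-54300000 (100% readable) holds Il3 and Csf2, cytokines of blood cell growth. Without UNC0642 it scored -0.00542 in Setdb1 WT, -0.00548 in Setdb1 KO, 0.00122 in Suv39h WT and -0.00190 in Suv39h DKO. With UNC0642 these 4 were 0.00102, -0.00797, -0.00668 and 0.00126. Ccl3 and Ccl4, chemokine genes at chr11:83600001-83700000 (98% readable), were below 0 in all 8 libraries, from -0.0159 in Setdb1 KO to -0.000936 in Suv39h DKO. Vcam1, an endothelial adhesion gene at chr3:116100001-116200000 (100% readable), was below 0 in all 8 as well, from -0.0119 to -0.00294. Both are well readable islands that were B throughout. Stxbp5l, a syntaxin-binding protein gene at chr16:37100001-37400000 (94.7% readable), was another, from -0.0153 to -0.00937.

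The interleukin genes Il1f8 and Il1f9 at chr2:24100001-24200000 (80% readable) scored -0.00492 in Setdb1 WT and -0.00345 with UNC0642, 0.00577 in Setdb1 KO and 0.00461 with UNC0642, and -0.00635 to -0.00206 in the 4 Suv39h libraries. Naip6, an inflammasome gene at chr13:100300001-100400000 (68% readable), scored -0.00315 to -0.000276 in the 4 Setdb1 libraries and 0.00575 to 0.0167 in the 4 Suv39h libraries.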
